A study of Mus musculus with 8 samples.

Results

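The 9 genes described here encode the pore-forming subunits of the AMPA-type glutamate receptor (Gria1, Gria2, Gria3 and Gria4) and 5 of its auxiliary proteins (Cacng2, Cacng3, Cacng8, Cnih2 and Cnih3). They were picked by symbol, and all 9 were found among the 34094 genes of the table, 1 row each. The mice were C57BL/6 and 2 months old, and RNA of their hippocampal CA1 region was sequenced in 4 libraries of a conditional knockout (cKO, with the genotype given as Brpf1 knockdown) and in 4 wild-type (WT) libraries. The sample titles read hippocampus tissue and name no region. Brpf1, a gene linked to intellectual disability, encodes a scaffold of histone acetyltransferase complexes. The sources used here do not give the driver of the knockout, the exons removed or the mouse behind each library, and the protocol speaks of 3 pairs of mice. The p-values therefore measure the spread between libraries, which may be partly technical.

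AMPA receptors are tetramers that open on binding glutamate and carry most fast excitatory transmission in the hippocampus. Each of the Gria genes gives 1 kind of subunit, and RNA editing of a single glutamine codon in the Gria2 pore makes receptors that hold this subunit nearly impermeable to calcium. Transmembrane AMPA receptor regulatory proteins (TARPs) bring the receptors to the synapse and slow their closing. Cacng2 (stargazin), Cacng3 and Cacng8 encode TARPs, and Cacng8 is known as the TARP typical of the hippocampus. Cnih2 and Cnih3 encode cornichons, which help receptors leave the endoplasmic reticulum and prolong its response to glutamate.

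The coding sequence of the pore is given because the gene-level reads cannot tell the edited from the unedited form. The stretches of Gria1, Gria2 and Gria4, 213 bases each and read 5′ to 3′ on the coding strand, are the longest that encode the same residues in these 3 subunits and hold a pair of adjacent glutamines. They come from the transcripts of GENCODE M21 (GRCm38), and the capitals mark the codon of the first of those glutamines.
Gria1: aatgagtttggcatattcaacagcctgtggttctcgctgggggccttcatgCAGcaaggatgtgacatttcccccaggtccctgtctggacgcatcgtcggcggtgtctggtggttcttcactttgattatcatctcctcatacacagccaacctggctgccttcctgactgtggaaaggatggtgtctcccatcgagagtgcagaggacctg
Gria2: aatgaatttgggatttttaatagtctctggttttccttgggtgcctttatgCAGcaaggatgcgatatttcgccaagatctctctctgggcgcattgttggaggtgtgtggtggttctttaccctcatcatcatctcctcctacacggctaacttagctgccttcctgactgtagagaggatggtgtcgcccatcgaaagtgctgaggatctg
Gria4: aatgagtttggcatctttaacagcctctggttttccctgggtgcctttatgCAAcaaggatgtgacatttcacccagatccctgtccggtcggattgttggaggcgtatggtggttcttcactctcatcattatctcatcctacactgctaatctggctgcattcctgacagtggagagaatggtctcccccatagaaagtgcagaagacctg

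The marked glutamine is residue 607 of the Gria2 product, counted from its first methionine, and it is the residue known to be edited. The codon is CAG in Gria1 and Gria2 and CAA in Gria4. Although the 71 encoded residues are identical, the bases differ from those of Gria2 at 40 positions in Gria1 and 36 in Gria4. Over whole coding sequences, the longest run of identical bases was 41 between Gria2 and Gria4, 20 between Gria1 and Gria4 and 17 between Gria1 and Gria2. Reads shorter than these runs could be shared between subunits, and the sources used here do not say how the counting treated them.

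Reads on genes ranged from 40330226 to 46559795 per cKO library and from 42346644 to 49897832 per WT library. Expression is given as normalized reads, that is, reads after division by the size factor of the library. Brpf1 itself had 848 to 1032 normalized reads in cKO libraries and 1358 to 1473 in WT libraries, with no overlap. Its log2 fold change was −0.59 (SE 0.089, limma adjusted p = 0.132 over the 26135 genes tested, and 0.0619 to 0.484 over the alternatives), and in the authors' deposited table its FDR is 1.47e-07. All 10 markers of CA1 pyramidal neurons were detected, with a summed level of 25295 to 34344 normalized reads in cKO libraries and 23290 to 32903 in WT libraries. The 8 markers of dentate granule neurons were detected too, at a sum of 16067 to 20002 normalized reads in cKO libraries and 18246 to 21906 in WT libraries. The same held for the 10 markers of CA3 and CA2 pyramidal neurons, at 26524 to 31207 in cKO libraries and 26280 to 31546 in WT libraries. The levels below are therefore those of mixed tissue and not of CA1 neurons alone. In such bulk tissue, fewer cells of a type and less RNA per cell cannot be told apart.

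None of the 9 genes passed the test across all genes, and the cKO and WT libraries overlapped for each. The mean in cKO lay between 88.5% of the WT mean, for Gria2, and 141% of it, for Cnih3. In the limma comparison 0 of 9 genes had an adjusted p under 0.05, where 0.0191% of all genes tested did, 0.00765% higher in cKO and 0.0115% lower in cKO. At an unadjusted p under 0.05 the count was 0 of 9, where 8.67% of all genes tested passed. Groups without overlap occurred for 0 of 9 genes and for 4.92% of all genes tested, 2.57% with every cKO library above and 2.35% with every cKO library below the WT libraries. In limma-voom on the recovered reads 0 of 9 passed at an adjusted and 0 of 9 at an unadjusted p under 0.05. Other alternatives gave members with an unadjusted p under 0.05, none of which passed after adjustment. There were 3 without cKO replicate 1, 3 without cKO replicate 2, 2 without WT replicate 3, 2 with the replicate block, 1 without WT replicate 4 and 1 with array weights. Over these 6 alternatives 1759 to 2998 of the 26135 genes tested had such a p. In the authors' deposited table, where 0.657% of genes have an FDR under 0.05, the lowest FDR among the 9 is 0.579, for Cacng2.

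**Figure D1:**
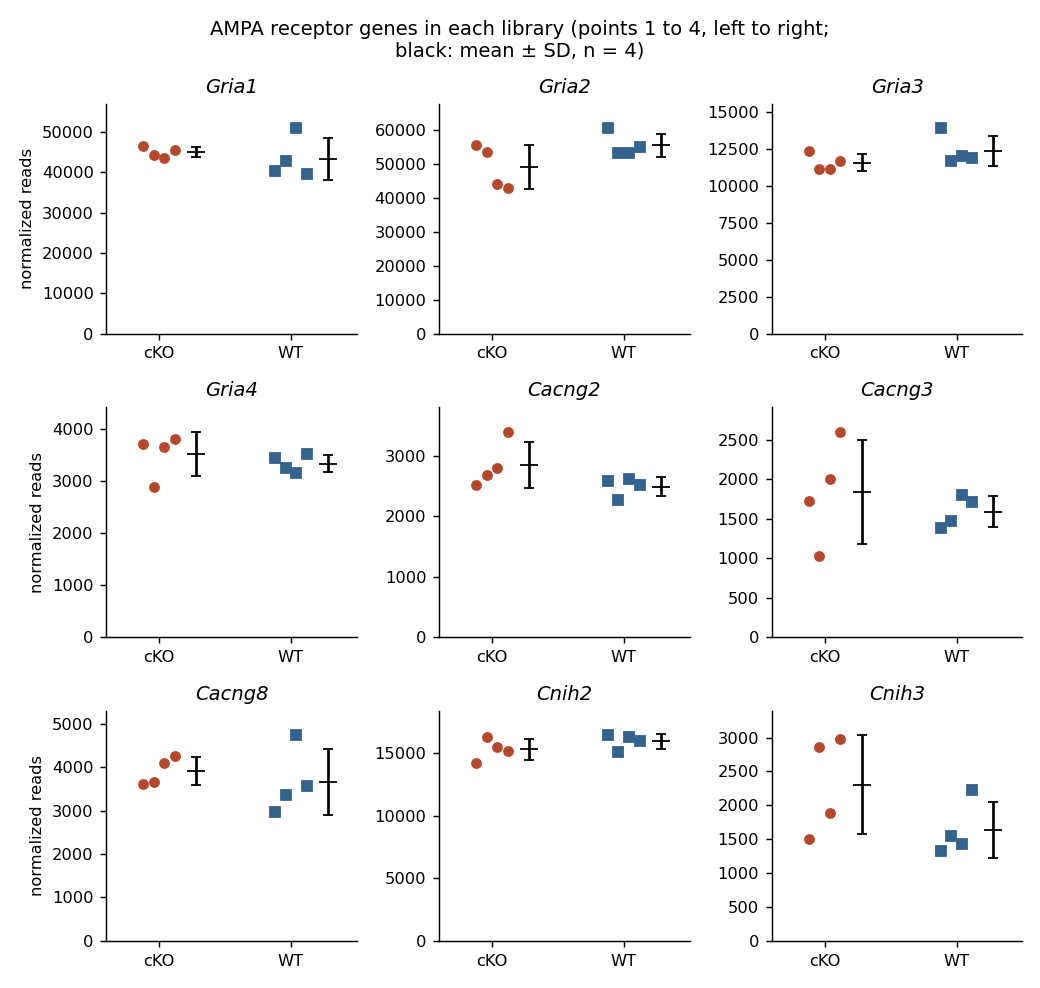
Normalized reads (vertical axes, starting at 0) of the 9 genes in each cKO library (circles) and each WT library (squares), with the mean ± SD of 4 libraries in black. The cKO and WT points overlap in every panel, and Cacng3 and Cnih3 spread most between libraries.

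Gria1 (ENSMUSG00000020524), whose subunit with that of Gria2 forms the main receptor of CA1 pyramidal cells, had close means in the groups. It had 46366, 44347, 43604 and 45406 normalized reads in cKO libraries 1 to 4, against 40287, 42852, 50845 and 39439.5 in WT libraries 1 to 4. The cKO libraries lay close together within the WT range, which WT replicate 3 extended upward. The log2 fold change was 0.06 (SE 0.083, limma adjusted p = 0.873), with a 95% interval from −0.13 to 0.24. On leaving out each library it ranged from 0.015 without WT replicate 4 to 0.14 without WT replicate 3, where the unadjusted p was 0.0467 and the limma adjusted p 0.465.

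Gria2 (ENSMUSG00000033981), which sets the calcium permeability of the receptor, had the lowest cKO mean relative to WT of the 9 genes. It had 55678, 53680, 44044 and 43118 normalized reads in cKO libraries, against 60590, 53239, 53240 and 55056 in WT libraries. Replicates 3 and 4 of cKO lay below every WT library, while replicates 1 and 2 lay within the WT range. The log2 fold change was −0.18 (SE 0.095, limma adjusted p = 0.603). The 95% interval of the log2 fold change ran from −0.39 to 0.03. On leaving out each library the value ranged from −0.25 without cKO replicate 1 (unadjusted p = 0.0245, limma adjusted p = 0.380) to −0.12 without cKO replicate 4.

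Gria3 and Gria4, which give less abundant subunits, had small differences of opposite sign. Gria3 (ENSMUSG00000001986) had 12342, 11115, 11147 and 11696 normalized reads in cKO libraries, against 13887, 11699, 11993 and 11882 in WT libraries. Of the 4 cKO libraries 3 lay below every WT library, and WT replicate 1 stood above all others. Its log2 fold change was −0.09 (SE 0.075, limma adjusted p = 0.733), and without WT replicate 1 it was −0.036.

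Gria4 (ENSMUSG00000025892), a subunit known from interneurons, had 3723, 2890, 3664 and 3808 normalized reads in cKO libraries, against 3437, 3251, 3148 and 3515 in WT libraries. Here 3 cKO libraries lay above every WT library and replicate 2 lay below every one. The log2 fold change was 0.07 (SE 0.096, limma adjusted p = 0.867). Without cKO replicate 2 it was 0.16, with an unadjusted p of 0.0480 and a limma adjusted p of 0.483, and without cKO replicate 4 it was 0.030. Interneuron markers had a positive log2 fold change in 9 of 11 genes, where 47.3% of all genes tested were positive. Their values ran from −0.23 for Calb2 to 0.27 for Sst. Of these markers 0 of 11 were called, where 0.0191% of all genes tested were. The markers had a summed level of 37720 to 45936 normalized reads in cKO libraries and 32807 to 42538 in WT libraries, and no marker was at 0. Their part in the Gria4 values was not tested.

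Cacng2, Cacng8 and Cacng3, the TARP genes among the members, had slightly higher means in cKO, and the cKO and WT libraries overlapped for each. Cacng2 (ENSMUSG00000019146) had 2524, 2684, 2806 and 3398 normalized reads in cKO libraries, against 2582, 2264, 2615 and 2516 in WT libraries. Replicates 2, 3 and 4 of cKO lay above every WT library, and replicate 1 lay among them. Its log2 fold change was 0.19 (SE 0.099, limma adjusted p = 0.611), with a 95% interval from −0.03 to 0.41. Without cKO replicate 4 it was 0.10 (limma adjusted p = 0.826), and without cKO replicate 1 it was 0.24 (unadjusted p = 0.0396, limma adjusted p = 0.423).

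Cacng8 (ENSMUSG00000053395) had 3606, 3667, 4101 and 4253 normalized reads in cKO libraries, against 2975, 3347, 4727 and 3569 in WT libraries. All cKO values lay inside the WT range, whose ends were replicates 1 and 3. Its log2 fold change was 0.11 (SE 0.13, limma adjusted p = 0.831). It was 0.023 without WT replicate 1 and 0.25 without WT replicate 3, where the unadjusted p was 0.0272 and the limma adjusted p 0.424.

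Cacng3 (ENSMUSG00000066189) was less even between libraries than Cacng2 and Cacng8. It had 1720, 1023, 2007 and 2599 normalized reads in cKO libraries, against 1382, 1467, 1800 and 1716 in WT libraries. The lowest and the highest of the 8 values both came from cKO, replicate 2 and replicate 4. On the log2 scale cKO minus WT was 0.14 (SE 0.25, limma adjusted p = 0.909). Without cKO replicate 2 it was 0.39 (unadjusted p = 0.0246, limma adjusted p = 0.449). Without cKO replicate 4 the sign turned, at −0.055 with an adjusted p of 0.977.

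Of the cornichons, Cnih2 (ENSMUSG00000024873) was the steadiest of all 9 genes on the log2 scale. It had 14253, 16300, 15489 and 15221 normalized reads in cKO libraries, against 16429, 15124, 16271 and 15972 in WT libraries. The groups overlapped, with cKO replicate 1 as the lowest value. Its log2 fold change was −0.06 (SE 0.065, limma adjusted p = 0.823), with a 95% interval from −0.20 to 0.08. On leaving out each library it ranged from −0.09 without cKO replicate 2 to −0.025 without cKO replicate 1.

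Cnih3 (ENSMUSG00000026514) had the log2 fold change farthest from 0 among the 9, and the groups still overlapped. It had 1502, 2856, 1894 and 2978 normalized reads in cKO libraries, against 1329.5, 1555, 1430 and 2230 in WT libraries. Replicates 2 and 4 of cKO lay above every WT library, and the other cKO libraries lay within the range that WT replicate 4 extended. The log2 fold change was 0.47 (SE 0.24, limma adjusted p = 0.607), and its 95% interval ran from −0.07 to 1.01. On leaving out each library the log2 fold change was lowest without cKO replicate 4, at 0.33 (limma adjusted p = 0.800). It was highest without cKO replicate 1, at 0.66 (unadjusted p = 0.0108, limma adjusted p = 0.342). Without WT replicate 4 it was 0.63 (unadjusted p = 0.0199, limma adjusted p = 0.736).

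**Figure D2:**
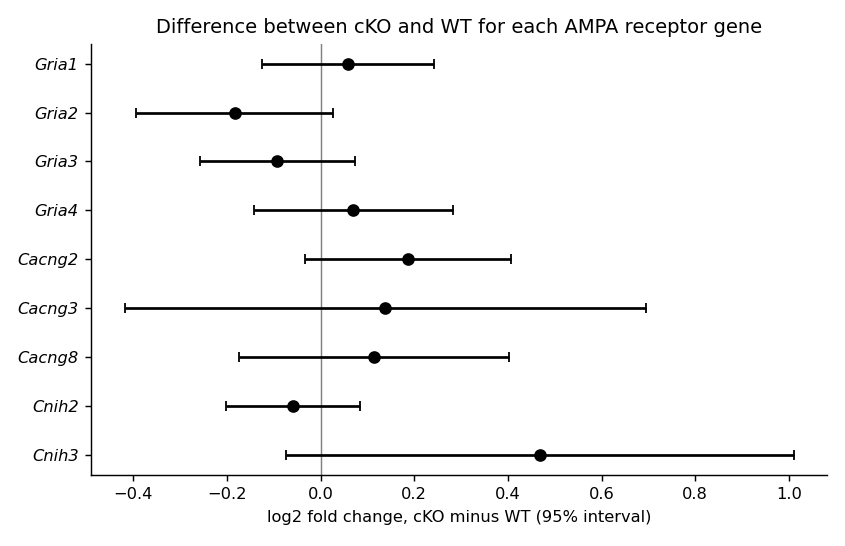
Log2 fold change of cKO minus WT for the 9 genes (points) with the 95% interval of the limma fit (bars). Every interval includes 0, from the narrow one of Cnih2, −0.20 to 0.08, to the wide ones of Cacng3, −0.42 to 0.69, and Cnih3, −0.07 to 1.01.

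The fewest reads on a member in any library were 1019, for Cacng3, which corresponds to a counting error of 3.13%. Within groups the coefficient of variation ranged from 2.69%, for Gria1 in cKO, to 35.6%, for Cacng3 in cKO. For Cnih3 it was 31.3% in cKO and 24.8% in WT. Counting error covers the sampling of reads only.

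Deviations from the group mean did not run in parallel across the members. Over the 8 libraries the Pearson correlation of group-centred log2 values was highest for Gria4 with Cacng3, at 0.79, and for Gria1 with Cacng8, at 0.75. It was lowest for Gria2 with Cacng3, at −0.73. Gria1 and Gria2 had a correlation of −0.14. These correlations describe 8 libraries that share their scaling, and the pair of Gria4 and Cacng3 shares the low value of cKO replicate 2.

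**Figure D3:**
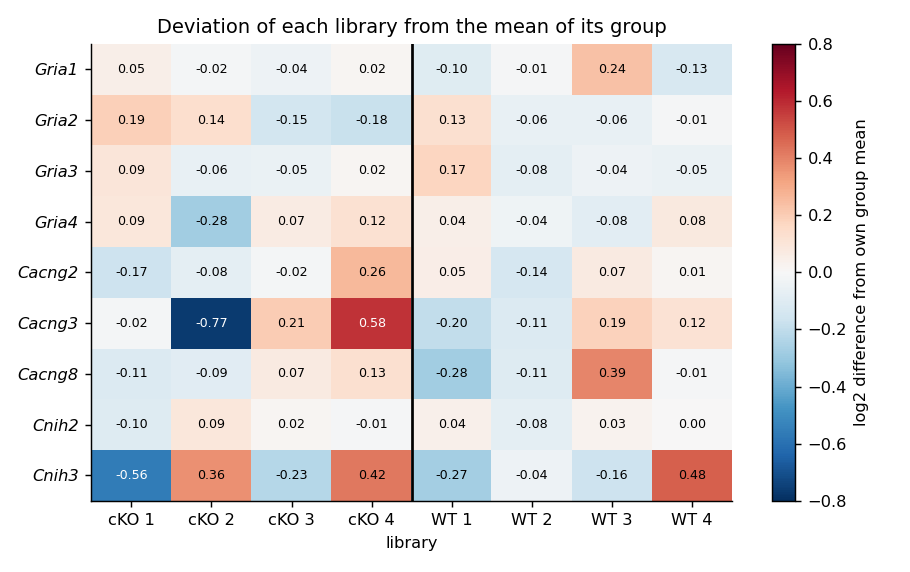
Log2 difference of each library (columns, cKO then WT) from the mean of its own group for the 9 genes (rows), with red above and blue below that mean. The largest deviations are −0.77 for Cacng3 in cKO 2 and 0.58 for Cacng3 in cKO 4, while Cnih2 stays between −0.10 and 0.09.

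By the same measure, the gene most like each member was sought among 12308 genes whose mean log2 value reached 7. These genes were Spon1 for Gria1 (r = 0.972), Dopey1 for Gria2 (0.979), Nup205 for Gria3 (0.981), Rasa2 for Gria4 (0.984) and Ulk2 for Cacng2 (0.995). For Cacng3 the gene was Pld2 (r = 0.992), for Cacng8 Scap (0.990), for Cnih2 Ppp1r16b (0.984) and for Cnih3 Zfp503 (0.960). Zfp503, which like Cnih3 was highest in cKO replicate 4, had a log2 fold change of 0.53 (SE 0.20, limma adjusted p = 0.519). The best of so many correlations over 8 libraries is high by selection alone, so these names only describe the libraries.

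Summed within a library, Cacng2, Cacng3 and Cacng8 had 8597 ± 1276 normalized reads in cKO and 7740 ± 1008 in WT (SD, n = 4). Cnih2 and Cnih3 together had 17623 ± 1441 in cKO and 17585 ± 644 in WT. The balance of subunits was compared as the ratio of reads within a library, for which no gene length is needed. Of the summed Gria reads, Gria2 took 44.9 ± 3.15% in cKO and 48.5 ± 2.90% in WT (SD, n = 4). Gria1 took 41.3 ± 2.18% in cKO and 37.8 ± 3.72% in WT, Gria3 10.6 ± 0.57% and 10.8 ± 0.71%, and Gria4 3.24 ± 0.49% and 2.92 ± 0.23%. The ratio of Gria1 to Gria2 reads was 0.833, 0.826, 0.990 and 1.05 in cKO libraries, against 0.665, 0.805, 0.955 and 0.716 in WT libraries. The cKO ratios lay in the upper part of the WT range or above it, and the groups overlapped through WT replicate 3. The difference of 0.24 on the log2 scale gave a two-sided exact permutation p of 0.114, or 0.343 after Benjamini-Hochberg adjustment over the 6 ratios compared.

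The ratio of Cnih3 to Cnih2 reads was 0.105, 0.175, 0.122 and 0.196 in cKO libraries, against 0.0810, 0.103, 0.0879 and 0.140 in WT libraries. All cKO ratios lay above those of WT replicates 1, 2 and 3, and WT replicate 4 lay among them. The log2 difference was 0.53 (exact permutation p = 0.114, adjusted 0.343). Log2 differences were 0.09 for Gria3 to Gria2, 0.25 for Gria4 to Gria2, −0.049 for Cacng3 to Cacng2 and −0.07 for Cacng8 to Cacng2. Their adjusted exact permutation p ran from 0.514 to 0.943. With 4 libraries in each group the smallest p this test can give is 0.0286. Without cKO replicate 2 the Cacng3 to Cacng2 difference turned to 0.18, and without WT replicate 3 the Cacng8 to Cacng2 difference turned to 0.035.

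**Figure D4:**
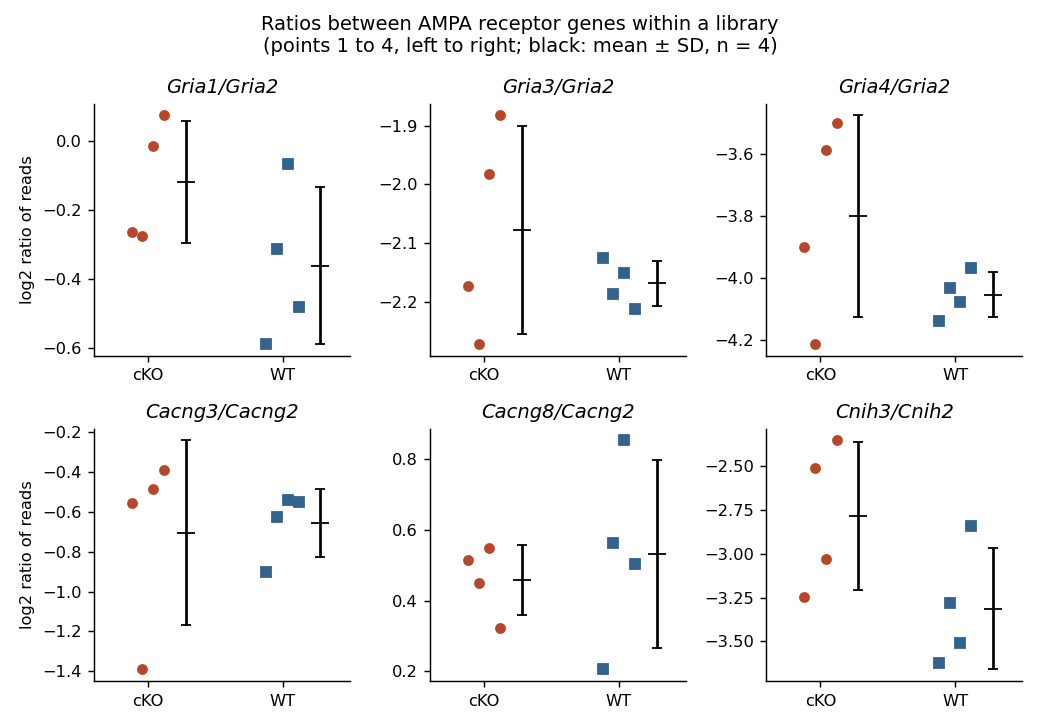
Log2 ratio of normalized reads between pairs of members in each cKO library (circles) and each WT library (squares), with the mean ± SD of 4 libraries in black. On axes that do not start at 0, the groups overlap for all 6 ratios, and the Cacng3 to Cacng2 value of cKO replicate 2, −1.39, stands apart from the other cKO libraries.

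Levels of different genes were compared per kilobase of the longest coding transcript in GENCODE M21, as normalized reads per kilobase. Cnih2 stood first, at 11404 ± 628 in cKO and 11876 ± 433 in WT (SD, n = 4), above all but 0.634% of the genes ranked. Gria1 followed at 8101 ± 218 in cKO and 7818 ± 938 in WT. Gria2 came next at 4737 ± 624 and 5354 ± 336, and then Gria3 at 2229 ± 111 and 2382 ± 197. The neighbours in this order down to Gria3 did not overlap within either group.

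Cacng8 had a higher level than Cacng2 and Cacng3, at 2059 ± 168 normalized reads per kilobase in cKO and 1927 ± 398 in WT. Its range overlapped with that of Gria3. The levels of Cnih3, at 865 ± 271 in cKO and 613 ± 152 in WT, and of Cacng3, at 662 ± 236 and 573 ± 71.6, were lower. Gria4 had 647 ± 78.1 in cKO and 613 ± 30.9 in WT, and Cacng2 came last in both groups at 518 ± 69.2 and 453 ± 28.8. By mean, Gria4 stood below Cnih3 and Cacng3 in cKO and above both in WT. In cKO the neighbours among these last 4 genes overlapped. In WT, Gria4 overlapped with Cnih3 and Cnih3 with Cacng3, while the range of Cacng2 lay below that of Cacng3. The order depends on the length used, apart from Cnih2, which came first with each. Per kilobase of coding sequence alone, Gria2 had 18547 ± 2442 in cKO and 20963 ± 1314 in WT, against 16513 ± 444 in cKO and 15934 ± 1911 in WT for Gria1. On that scale their cKO ranges overlapped and their WT ranges did not. There Cnih3 stood above Cacng8 by mean, Cacng2 above Cacng3, and Gria4 last, at 1301 ± 157 in cKO and 1233 ± 62.2 in WT. Per kilobase of merged exons, Cacng8 stood above Gria3, at 1666 ± 136 in cKO and 1559 ± 322 in WT against 1174 ± 58.5 in cKO and 1254 ± 103.6 in WT, and their ranges overlapped in WT. The longest Gria2 transcript has 10371 bases, of which 2649 are coding, and which transcripts these tissues use is not shown by gene-level reads.

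In the annotation, exons of Cacng2 share 323 bases with those of A730060N03Rik on the opposite strand, which had 96 to 158 reads per library. Cnih2 shares 14 exon bases with the opposite-strand gene Yif1a, which had 264 to 376 reads. The library kit was a stranded one, but the sources used here do not give the strand setting of the counting, so a part of those reads may belong to the partner gene.

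Genes around the AMPA receptor were described from 5 further lists, and none of their 12, 11, 25, 3 and 14 members passed limma over all genes in either direction. At an unadjusted p under 0.05 the counts were 0, 3, 2, 0 and 1 in the same order of lists, where 8.67% of all genes tested passed. Over the 9 receptor genes the median log2 fold change was 0.07 and 6 of 9 were positive. Over all genes tested the median was −0.018 and 47.3% were positive. The median of the 9 ranged from 0.026 without WT replicate 1 to 0.14 without cKO replicate 2. With quantile normalization it was 0.035, against 0.008 for all genes. Without cKO replicate 4 it was 0.030, with 5 of 9 positive. Other auxiliary proteins had a median of 0.03 with 8 of 12 positive. The value for Gsg1l, which encodes a claudin-like subunit that slows recovery from desensitization, was 0.36 (SE 0.18, limma adjusted p = 0.600). Cacng7 and Cacng4, further TARP genes, had 0.13 (SE 0.088) and −0.22 (SE 0.15). Cacng7 had means of 6400 normalized reads in cKO and 5819 in WT, above the 3907 and 3655 of Cacng8. Its level per kilobase was not computed.

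Genes for assembly in the endoplasmic reticulum and for clustering outside the cell had a median log2 fold change of 0.05, with 6 of 11 positive. The neuronal pentraxins, secreted or membrane-bound proteins that gather AMPA receptors at synapses, include the gene with the smallest p of this list. Nptx1 had 21589, 24614, 25075 and 25782 normalized reads in cKO libraries, against 15765, 16851, 22724 and 18404 in WT libraries. All cKO libraries lay above 3 of the WT libraries, and WT replicate 3 lay above cKO replicate 1. Its log2 fold change was 0.41 (SE 0.11, unadjusted p = 0.00384, limma adjusted p = 0.496). Nptxr, the pentraxin receptor gene, had 35400 ± 1569 normalized reads in cKO and 29679 ± 4197 in WT (log2 fold change 0.26, SE 0.097, limma adjusted p = 0.517). Olfm1, whose secreted product is found in receptor complexes, had a log2 fold change of 0.20 (SE 0.089, limma adjusted p = 0.577).

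Anchoring and trafficking genes had a median log2 fold change of 0.12, with 20 of 25 positive. Nsf, whose product binds the Gria2 subunit and keeps receptors at the surface, had 34279 ± 2747 normalized reads in cKO and 28294 ± 4282 in WT (log2 fold change 0.29, SE 0.11, limma adjusted p = 0.519). Dlg4, the postsynaptic scaffold PSD-95, had a log2 fold change of 0.15 (SE 0.065, limma adjusted p = 0.574). Its relative Dlg2 had 17484, 17191, 17626 and 19304 in cKO libraries, against 17080, 14576, 16970 and 15977 in WT libraries. It was the only gene of these lists with every cKO library above every WT library, a pattern of 2.57% of all genes tested, and its limma adjusted p was 0.592.

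The RNA editing enzymes had 3 of 3 positive values. Adarb1, which edits the Gria2 codon shown above, had 6642 ± 741 normalized reads in cKO and 5970 ± 875 in WT (log2 fold change 0.16, SE 0.11, limma adjusted p = 0.703). Adar had 0.19 (SE 0.17) and Adarb2, which has no known editing activity, 0.15 (SE 0.16).

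Other ionotropic glutamate receptors had a median of 0.10, with 9 of 14 positive. The kainate receptor gene Grik2 had 4658 ± 597 normalized reads in cKO and 5731 ± 417 in WT (log2 fold change −0.30, SE 0.097, limma adjusted p = 0.496). The NMDA receptor genes Grin2a and Grin1 had −0.16 (SE 0.083) and 0.18 (SE 0.094).

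**Figure D5:**
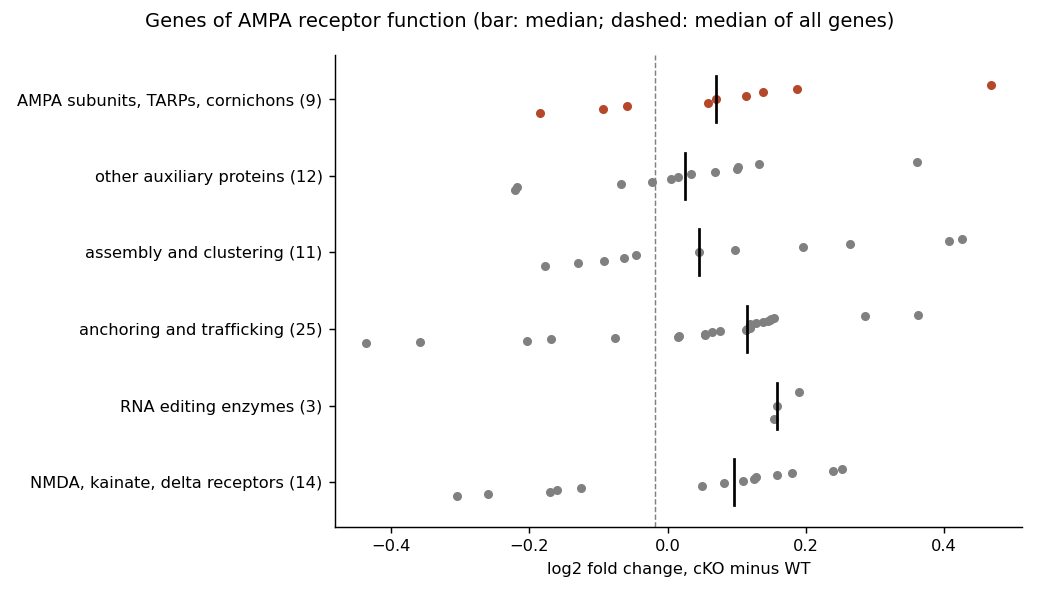
Log2 fold change of cKO minus WT for the 9 receptor genes (red) and for 5 lists of related genes (grey), with list medians as bars and the median of all genes tested, −0.018, as a dashed line. The lists straddle 0, apart from the 3 editing enzymes, and no gene shown passed the test over all genes.

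Markers of cells other than neurons also differed between libraries. Oligodendrocyte markers had a positive log2 fold change in 0 of 9 genes, with a sum of 95582 to 147570 normalized reads in cKO libraries and 117435 to 173087 in WT libraries. Choroid plexus markers had one in 0 of 10 genes, and 0 of either list passed limma. Positive values were 6 of 7 for microglia, 5 of 8 for astrocytes and 3 of 6 for oligodendrocyte precursors. They were 1 of 5 for endothelial cells and 0 of 6 for ependymal cells, where 47.3% of all genes tested were positive. Summed choroid plexus reads ran from 10769 to 48229 in cKO libraries and from 5318 to 168074 in WT libraries, and none of these markers was at 0. With the choroid plexus level as a covariate, 0 of the 9 receptor genes passed at an adjusted or an unadjusted p under 0.05, and all kept their direction.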

How the data were processed

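The authors deposited 1 table with a log2 value for each gene and library, and the log2 fold change, p-value and FDR of their own comparison. The submitters' processing notes name STAR, StringTie and DESeq2, and mm9 as the build. The sources used here do not give the role of each tool, the annotation or the test behind the deposited p-value. The deposited log2 values were found to be log2 of size-factor-scaled reads plus 1, because 100% of values in each library came out as whole reads (tolerance 0.001), and the reads were recovered from them.

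The 4 cKO and 4 WT libraries were compared by limma 3.58.1 in R 4.3.3 (trend, robust, no covariate) on the deposited log2 values with their pseudocount of 1. The 26135 genes tested had 1 or more normalized reads in 4 or more libraries. Adjusted p is Benjamini-Hochberg over these genes, with a threshold of 0.05. The procedure was tested on simulated data. Fold changes are on the log2(value + 1) scale. Gene lengths and sequences come from GENCODE M21 (GRCm38), a build other than that of the reads, so no coordinates are printed.

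Members and lists were chosen with earlier results of these data known. Named list genes are those past the test, otherwise the 3 with the smallest p per list. Alternatives were other scalings, filters, weights, a pseudocount of 0.1, voom, a replicate block, a choroid plexus covariate and leaving out each library. The sequence of 1 subunit gene is not reported here.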

Additional observations from a re-analysis of the deposited data

Results flagged for a closer look

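In 32 groups of 4 libraries, 3 held a library far from the others by Dixon's test, which chance gives in about 1 of 20 groups. The first was Gria3 in WT, where replicate 1 had 13887 normalized reads and its gap to the next library was 0.865 of the range. The second was Gria4 in cKO, where replicate 2 had 2890 normalized reads and its gap was 0.843 of the range. The third was the log2 ratio of Cacng3 to Cacng2 in cKO, where replicate 2 was at −1.39 and its gap was 0.834 of the range. That library thus accounts for both cKO entries.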

How the results depend on the processing

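Under 17 alternatives none of the 9 genes passed the threshold, and 152 of 153 fold changes kept their direction. The exception was Cacng3 without cKO replicate 4: its value ranged from −0.055 to 0.39 on leaving out each library. The cause was not tested. Adjusted p ranged from 0.342 to 1.00. Over all genes 5 passed, 8 with array weights and 2 with the replicate block, and 4 to 7 on leaving out each library. Over all genes tested, same-numbered libraries had correlations from −0.04 to 0.03, and 2 of 4 cKO libraries were closest to their own number. The main comparison therefore did not take the numbers as pairs. Correlations over all genes cannot exclude a pairing that affects some genes only. With the replicate block 0 of 9 genes were called and 2 passed without adjustment. For Cnih3 the SE was 0.12 with the block, against 0.24 without it, the unadjusted p was 0.00561 and the limma adjusted p 0.484. For Gria2 the unadjusted p was 0.0453 and the limma adjusted p 0.528. The SE of Gria2 was 0.076 with the block and 0.095 without it. It was also lower with the block for Gria3 (0.061 against 0.075), Gria4 (0.084 against 0.096) and Cacng2 (0.093 against 0.099). The same held for Cacng3 (0.17 against 0.25) and Cacng8 (0.097 against 0.13). For Gria1 (0.085 against 0.083) and Cnih2 (0.071 against 0.065) the SE was higher with the block. Of 60 alternative ratio values 58 kept their direction. On leaving out each library, the Cacng3 to Cacng2 difference ranged from −0.15 to 0.18 and the Cacng8 to Cacng2 difference from −0.18 to 0.035, with smallest possible p of 0.0571. The sign-flip test over the replicate block cannot give a p below 0.125.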
